A study of Mus musculus with 6 samples.

Results

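Nuclear genes of respiratory complexes III and IV and of the ATP synthase (complex V), together with cytochrome c, were examined in brown adipose tissue (BAT). Members were the genes of the count table whose symbol began with Uqcr, with Cox and a digit, or with Atp5, or was Cyc1 or Cycs, and names with -ps, which mark pseudogenes, were left out. This rule took 54 of 35976 genes. By role these were 4 core and 5 small subunits of complex III, cytochrome c (Cycs), 10 general and 7 tissue-restricted subunit genes of complex IV, the complex III and IV supercomplex factor Cox7a2l, 9 complex IV assembly factors, 15 ATP synthase subunits and 2 genes, Atp5s and Atp5sl, that carry an Atp5 symbol and are not counted as subunits here. Bulk mRNA was sequenced from the BAT of 3 Cars2 AKO mice, in which floxed Cars2 was deleted by Adiponectin-Cre, and of 3 mice labelled WT. All 6 mice had spent 4 h at 4 °C, and no group was kept warm, so every value below belongs to the cold-exposed state. Adiponectin-Cre acts in adipocytes of every fat depot, while the other cells of BAT keep Cars2. The study's methods give 1 age range for all of its mice and name male mice for its experiments on chow and on high-fat diet. They describe cohorts as matched for sex and age and do not list the age or sex of these 6. The labels call the controls WT, and the study elsewhere also calls its wild-type controls Flox.

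Complex III passes electrons from ubiquinol to cytochrome c, complex IV (cytochrome c oxidase) passes them on to oxygen, and the ATP synthase uses the resulting proton gradient to make ATP. Brown adipocytes are packed with mitochondria whose gradient is discharged by UCP1 to give heat, so their respiratory chain is abundant relative to their ATP synthase. Each of these complexes joins subunits from nuclear genes with a few made inside the mitochondrion. Several complex IV subunits, and the c subunit that forms the rotor ring of the ATP synthase, are made from alternative genes whose use differs between tissues.

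Total counts ranged from 6540619 to 8461685 per library, and 13007 genes had enough counts to be tested. Levels are given as CPM, a gene's counts relative to the TMM-scaled library size. The targeted gene Cars2, a mitochondrial cysteinyl-tRNA synthetase, had 200.02 ± 61.0 CPM in AKO BAT and 625 ± 164 CPM in WT BAT (SD, n = 3 each). Ucp1 stood at 4654 ± 1659 CPM in AKO and 14912 ± 826 CPM in WT, and all 10 brown adipocyte markers examined were detected in both groups. Of these 10 markers, 8 fell in AKO, with a median log2 fold change of −0.77. Skeletal muscle markers moved the other way, with 16 of 17 higher in AKO and a summed level of 1110 to 2249 CPM in AKO libraries against 289 to 662 CPM in WT libraries. Of 12 macrophage markers 11 were higher, summing to 876 to 1211 CPM in AKO and 238 to 290.3 CPM in WT, as were 6 of 7 proliferation markers and 7 of 9 fibroblast and progenitor markers.

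Most of the members were lower in AKO BAT. Of the 51 that passed the filter on low counts, 29 fell and 3 rose, which left 19 without a call (quasi-likelihood F test of edgeR, adjusted over all genes tested by Benjamini-Hochberg, threshold 0.05). The 29 make up 56.9% of the members tested, against 17.5% of all genes tested that were called lower, and the 3 make up 5.88%, against 20.2% of all genes called higher. With library totals as the only scaling 27 members fell and 3 rose, where 12.4% of all genes were called lower and 23.2% higher. In 39 members every AKO library lay below every WT library, a pattern seen in 24.4% of all genes, and in 4 every AKO library lay above, as in 25.7% of all genes. The log2 fold change was negative in 46 of 51, with a median of −0.42, beside 0.01 over all genes tested. The 3 members left untested were the assembly factor Cox16, with 2 to 9 counts per library, and the testis-associated Cox7b2 and Cox8c, which had 0 counts in all 6 libraries. In bulk tissue, fewer cells of a type and less RNA per cell cannot be told apart, and the part that the lower brown adipocyte markers have in the fall of the members was not tested.

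The changes were small and spread over many members. Among the 45 members with a mean of at least 20 CPM, 29 fell and 0 rose, with log2 fold changes between −0.93 and −0.02. All 3 members that rose were among the 6 tested members under 20 CPM. By class, 8 of 10 members of complex III with cytochrome c fell (median log2 fold change −0.49), 9 of 16 complex IV subunits fell and 1 rose (−0.41), 6 of 8 complex IV assembly factors fell (−0.50), and 6 of 17 ATP synthase members fell and 2 rose (−0.26). The supercomplex factor Cox7a2l is counted among the 16 complex IV subunits here. Whether these classes differ from one another was not tested.

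**Figure D1:**
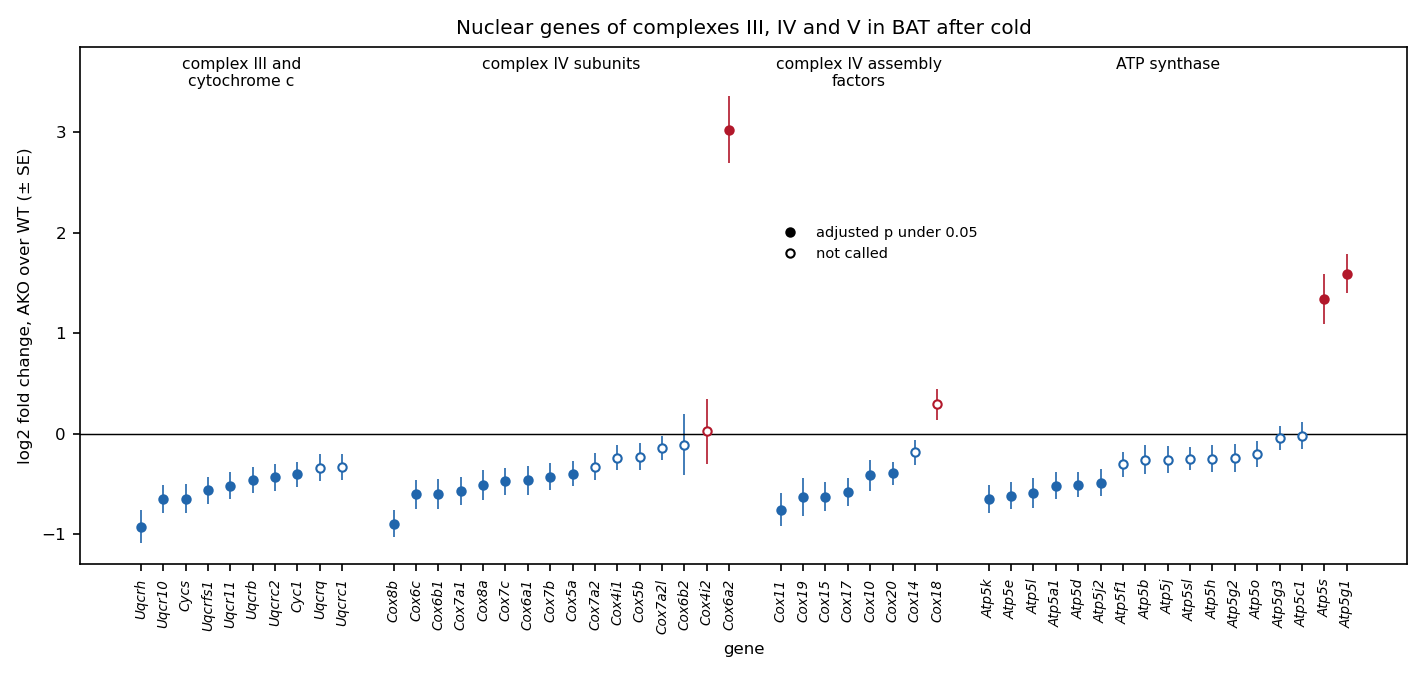
Log2 fold change of AKO over WT with its SE for the 51 tested members, in 4 classes and ordered by size within each; filled points passed the test and open points did not, with blue for lower and red for higher in AKO. Most points lie between 0 and −0.93, and Cox6a2, Atp5g1 and Atp5s stand above 1.

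In complex III the small subunit Uqcrh, the acidic hinge protein that helps cytochrome c dock on cytochrome c1, changed most. Uqcrh had 290.5, 290.8 and 194 CPM in AKO libraries 1 to 3, against 464, 546 and 464 CPM in WT libraries 1 to 3. The groups did not overlap, and AKO 3 was the lowest library. On the log2 scale the difference was −0.93 with an SE of 0.16 (edgeR adjusted p = 0.00083), so that AKO stood at 52.6% of WT. Uqcr10, a small membrane subunit, had 285, 263 and 206 CPM in AKO and 380.4, 431 and 374 CPM in WT, a log2 fold change of −0.65 ± 0.14 (edgeR adjusted p = 0.0034). Uqcrfs1, the Rieske iron-sulfur protein that carries the first electron from quinol, had 482, 483 and 416 CPM in AKO and 668, 758 and 616 CPM in WT (−0.56 ± 0.13). Again every AKO library lay below every WT library.

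Cyc1, the cytochrome c1 subunit that hands electrons to cytochrome c, also fell (log2 fold change −0.40), as did Uqcrc2 (−0.44), Uqcrb (−0.46) and Uqcr11 (−0.52). The smallest changes in this class belonged to the core protein Uqcrc1 and to Uqcrq. Uqcrc1 had 1103, 996 and 946 CPM in AKO and 1210.5, 1425 and 1204 CPM in WT, a log2 fold change of −0.33 ± 0.13 that did not pass (edgeR adjusted p = 0.063). Uqcrq, which contacts the mitochondrially encoded cytochrome b, had 499.8, 452 and 418 CPM in AKO and 564, 662 and 505 CPM in WT (−0.34 ± 0.14, edgeR adjusted p = 0.071). In both, the groups were still apart, and both passed with DESeq2 (adjusted p = 0.027 for Uqcrc1 and 0.043 for Uqcrq). Over all alternatives the adjusted p ran from 0.027 to 0.22 for Uqcrc1 and from 0.032 to 0.27 for Uqcrq. Pdzd9 overlaps Uqcrc2 by 504 exon bases on the opposite strand and had a log2 fold change of −0.50, and because nothing says whether the counting used strand, the reads of this pair cannot be told apart.

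Cytochrome c, the small carrier between complexes III and IV, fell by the same amount as Uqcr10. Cycs had 764, 710.3 and 563 CPM in AKO, against 1108, 1116 and 967 CPM in WT. No AKO library reached the WT range, and the log2 fold change was −0.65 ± 0.14 (edgeR adjusted p = 0.0038). Of the 50-base words in its transcript, 28.2% also occur in transcripts of other genes, 43 in all. Among these are Gm10053, annotated as protein-coding, and processed pseudogenes. Part of the Cycs reads may thus have been dropped or assigned elsewhere.

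In complex IV, heart and skeletal muscle use their own forms of several subunits, some of which brown fat shares, and these restricted genes went separate ways. The restricted gene Cox8b, the form of subunit 8 found in brown fat, heart and muscle, fell in AKO. Cox8b had 396, 404 and 343 CPM in AKO libraries, against 620.0, 800.0 and 706 CPM in WT libraries. All 3 AKO libraries were below all 3 WT libraries, with a log2 fold change of −0.90 ± 0.14 (edgeR adjusted p = 0.00033), or 53.7% of WT. Its general partner Cox8a had 934, 894 and 673 CPM in AKO and 1188, 1270 and 1103 CPM in WT, a log2 fold change of −0.51 ± 0.15 (edgeR adjusted p = 0.016). Within each library the log2 ratio of Cox8b to Cox8a counts was −1.24, −1.15 and −0.97 in AKO, against −0.94, −0.67 and −0.64 in WT. The ratio was thus lower in every AKO library, by 0.37 ± 0.12 (SE) on the log2 scale, with an exact two-sided permutation p = 0.1, which is the smallest that 3 against 3 libraries can give (Benjamini-Hochberg adjusted p = 0.15 over 6 ratios). Cox8b and Cox7a1 are both on the study's list of genes lower in both of its knockout comparisons, which was drawn from these libraries among others, so the direction of these genes is not independent evidence.

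Cox7a1, the heart and muscle form of subunit 7a that is also a marker of brown fat, had 161, 179.9 and 159 CPM in AKO and 219, 291 and 233 CPM in WT. The groups did not overlap (log2 fold change −0.57 ± 0.14, edgeR adjusted p = 0.0059). Its general partner Cox7a2 had 199, 192 and 157 CPM in AKO and 236, 252 and 202 CPM in WT, a log2 fold change of −0.33 ± 0.14 that did not pass (edgeR adjusted p = 0.077), although every AKO library was below every WT library. The log2 ratio of Cox7a1 to Cox7a2 was −0.31, −0.10 and 0.02 in AKO and −0.11, 0.21 and 0.21 in WT. These ratios overlapped between the groups, and the difference of −0.23 ± 0.14 gave an exact permutation p = 0.3.

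Cox6a2, the heart and skeletal muscle form of subunit 6a, was the member with the largest change and rose. It had 15.7, 22.1 and 27.0 CPM in AKO libraries, against 3.84, 1.02 and 3.00 CPM in WT libraries. The groups were far apart, with a log2 fold change of 3.03 ± 0.33 (edgeR adjusted p = 3.7e-05), but the WT values rest on 8 to 32 counts per library. The general gene Cox6a1 had 1295, 1063 and 986 CPM in AKO and 1488, 1707 and 1413 CPM in WT (−0.46 ± 0.14, edgeR adjusted p = 0.023), so Cox6a2 made up 1.20% to 2.67% of the counts of the pair in AKO and 0.0596% to 0.257% in WT. The log2 ratio of Cox6a2 to Cox6a1 was higher by 3.64 ± 0.73 in AKO (exact permutation p = 0.1, adjusted p = 0.15).

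Cox6a2 moved together with the skeletal muscle markers. Their summed level was 1110, 2249 and 2238 CPM in AKO libraries 1 to 3, against 638, 289 and 662 CPM in WT libraries 1 to 3, and WT 2 had both the lowest marker sum and the lowest Cox6a2. The muscle genes Acta1, Myh4 and Ckm were detected in both groups, at 512 ± 181, 186 ± 102 and 172 ± 62.3 CPM in AKO and 94.6 ± 64.8, 38.0 ± 28.8 and 33.4 ± 22.4 CPM in WT. Des, whose mean level over all libraries was above those of Myh4 and Ckm, had 153 ± 31.1 CPM in AKO and 149 ± 5.33 CPM in WT. Per 100 CPM of summed markers, Cox6a2 was at 1.42, 0.98 and 1.21 CPM in AKO, against 0.60, 0.35 and 0.45 CPM in WT. With Des left out of the sum, a marker with a log2 fold change of 0.04 and that was set aside after its values were seen, the figures were 1.60, 1.05 and 1.32 CPM in AKO and 0.78, 0.76 and 0.58 CPM in WT. Both ratios depend on which markers are listed. In WT 2, Des, Myl1 and Mb had 155, 42.8 and 28.0 CPM of the sum of 289 CPM. Myl1 and Mb had log2 fold changes of 1.05 and 1.32, beside a median of 2.29 over the list. Whether Cox6a2 rose beyond the muscle content of the tissue was not tested. Itgad, which overlaps Cox6a2 by 70 exon bases on the opposite strand, had 0 to 2 counts per library.

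**Figure D2:**
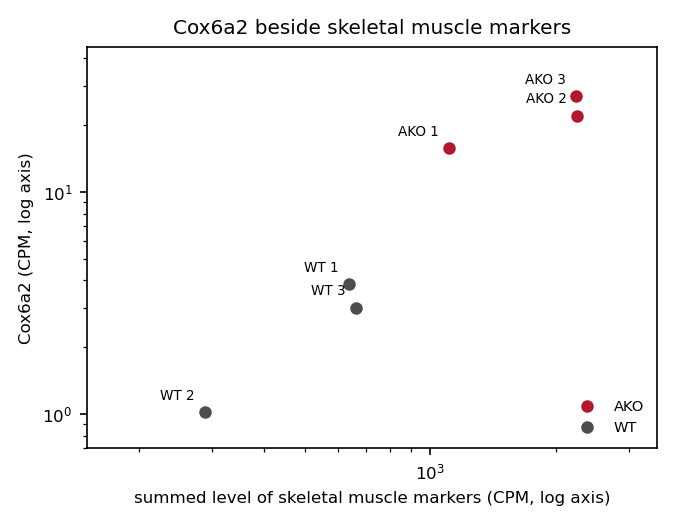
Cox6a2 level in CPM against the summed level of 17 skeletal muscle markers in CPM, both on log axes, 1 point for each of the 6 libraries. The 3 AKO libraries run from 15.7 to 27.0 CPM of Cox6a2 and the WT libraries from 1.02 to 3.84 CPM.

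For subunit 4 neither gene passed the test. Cox4i2, the lung-associated and oxygen-responsive form of subunit 4, had 2.40, 3.18 and 2.14 CPM in AKO and 3.36, 2.42 and 1.78 CPM in WT, from 13 to 28 counts per library. These values overlapped (log2 fold change 0.02 ± 0.32). Cox4i1, the general form, had 1336, 1237 and 1200.3 CPM in AKO and 1489, 1581 and 1379 CPM in WT, a log2 fold change of −0.24 ± 0.13 that did not pass (edgeR adjusted p = 0.16), although every AKO library of Cox4i1 lay below every WT library. The log2 ratio of Cox4i2 to Cox4i1 differed by 0.29 ± 0.29 (exact permutation p = 0.4). Emc8 overlaps Cox4i1 by 154 exon bases on the opposite strand and had a log2 fold change of −0.95.

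**Figure D3:**
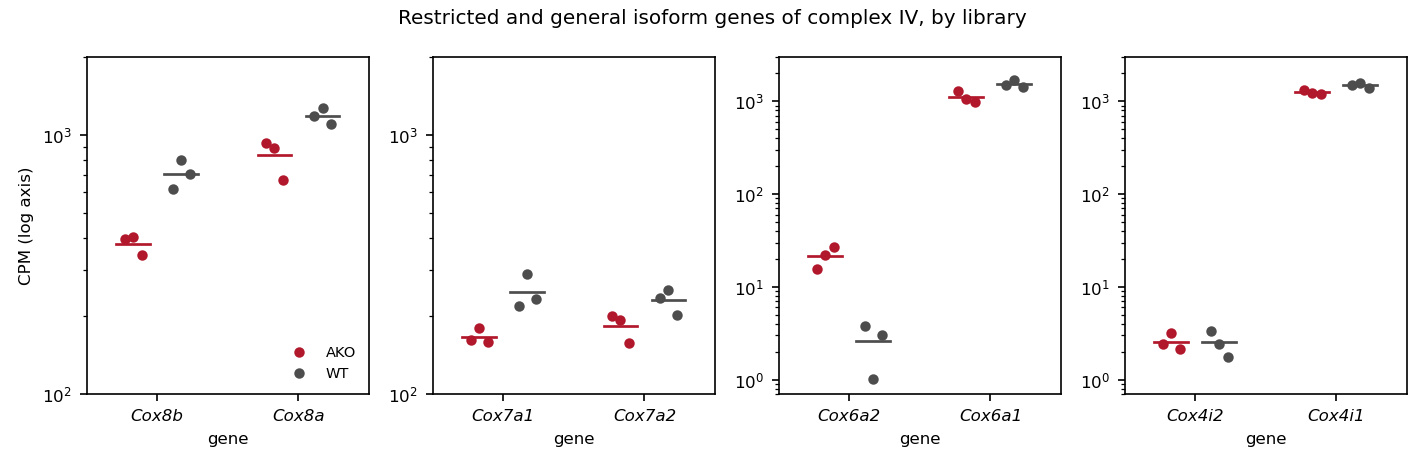
CPM on log axes of the restricted gene (left) and the general gene (right) of complex IV subunits 8, 7a, 6a and 4, with AKO libraries in red beside WT libraries in grey and a bar at each mean. Cox8b and Cox7a1 are lower in every AKO library and Cox6a2 is higher in every AKO library, while Cox4i2 overlaps.

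Among the general complex IV subunits, 7 of 10 fell, with a median log2 fold change of −0.45. Cox6c, a small membrane subunit, had 397, 487 and 392 CPM in AKO and 642, 729 and 569 CPM in WT, with every AKO library below every WT library (−0.60 ± 0.14, edgeR adjusted p = 0.0052). Cox6b1 (−0.60), which sits on the intermembrane side and helps complex IV dimerise, fell likewise, as did Cox7c (−0.48), Cox7b (−0.43) and Cox5a (−0.40). Cox5b, a matrix-facing subunit that binds zinc, had 507, 464 and 429 CPM in AKO and 537, 615 and 489 CPM in WT, where the groups overlapped and the log2 fold change of −0.23 ± 0.13 did not pass (edgeR adjusted p = 0.19). Cox7a2l, a factor that tethers complexes III and IV in supercomplexes, had 163, 161 and 152 CPM in AKO and 164, 197 and 166 CPM in WT (−0.14 ± 0.12, edgeR adjusted p = 0.38). Cox6b2, a testis-associated form, was at 2.81 ± 0.76 CPM in AKO and 3.04 ± 0.59 CPM in WT.

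Of the 9 assembly factors with a Cox symbol, which insert copper and haem into complex IV and help its core subunits into the membrane, 8 were tested and 6 fell. Cox11, which delivers copper to the binuclear centre in the COX1 subunit, had 23.3, 16.8 and 15.5 CPM in AKO and 29.1, 32.9 and 32.2 CPM in WT. The groups did not overlap and Cox11 changed by −0.76 ± 0.17 on the log2 scale (edgeR adjusted p = 0.0035). Cox15, which makes haem A, had 36.4, 39.0 and 33.0 CPM in AKO and 47.0, 66.1 and 54.8 CPM in WT (−0.63 ± 0.15, edgeR adjusted p = 0.0048). Cox17, the copper chaperone that feeds Cox11 and the Sco proteins, had 61.4, 65.6 and 51.0 CPM in AKO and 83.1, 101 and 82.1 CPM in WT (−0.58 ± 0.14). Cox20, a chaperone of COX2, had 48.7, 51.5 and 50.5 CPM in AKO and 62.4, 64.2 and 71.8 CPM in WT, a smaller fall of 0.40 on the log2 scale (SE 0.12).

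Cox10, which makes haem O for Cox15, fell by 0.42 at the edge of the threshold (edgeR adjusted p = 0.048), and Cox19, a copper-handling protein, fell by 0.63 ± 0.19 with a wide spread in AKO, where library 1 had 76.8 CPM and the others 46.4 and 42.7 CPM. Cox14, which binds newly made COX1, had 42.5, 35.3 and 37.3 CPM in AKO and 43.1, 45.6 and 42.3 CPM in WT. These overlapped, and the log2 fold change was −0.19 ± 0.13 (edgeR adjusted p = 0.27). Cox18, an inserter of the COX2 tail, was at 16.3 ± 0.59 CPM in AKO and 13.3 ± 0.87 CPM in WT, with a log2 fold change of 0.29 that did not pass. Hnrnpu shares 804 exon bases with Cox20 and Tom1l1 shares 688 with Cox11, each on the opposite strand, and neither passed the test (−0.09 and −0.03).

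The members of the ATP synthase are given here by part, and whether the parts differ was not tested. All 3 subunits of the membrane part outside the ring fell (median log2 fold change −0.59), 3 of 5 subunits of the catalytic F1 head fell (−0.51), 0 of 4 peripheral stalk subunits were called (−0.25), and of the 3 c-ring genes 1 rose. Atp5k, the e subunit that holds ATP synthase dimers together, had 68.4, 80.2 and 65.1 CPM in AKO and 97.9, 129 and 108 CPM in WT, with no overlap (−0.65 ± 0.14, edgeR adjusted p = 0.0031). Its neighbours in the membrane, Atp5l (−0.59) and Atp5j2 (−0.49), fell too. Atp5e, the epsilon subunit of the F1 central stalk, had 191, 172 and 141 CPM in AKO and 249, 276 and 247 CPM in WT (−0.62 ± 0.14, edgeR adjusted p = 0.0037).

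The alpha subunit gene Atp5a1 (−0.52) and the delta subunit gene Atp5d (−0.51) fell by similar amounts. Atp5b, which encodes the catalytic beta subunit, was the member with the highest level, at 6087 ± 294 CPM in AKO and 7279 ± 790 CPM in WT, and its change of −0.26 ± 0.14 did not pass (edgeR adjusted p = 0.17). Atp5c1, the gamma subunit at the core of the rotor, had 594, 613 and 499 CPM in AKO and 526, 631 and 571 CPM in WT. Here the libraries of the groups were interleaved, with a log2 fold change of −0.02 ± 0.13. The peripheral stalk genes Atp5f1, Atp5h, Atp5j and Atp5o, whose products brace the F1 head against rotation, lay between −0.30 and −0.20. In 3 of these 4 every AKO library was below every WT library, and Atp5f1 passed with DESeq2 alone (adjusted p = 0.041, and 0.041 to 0.21 over all alternatives).

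The c subunit is encoded by 3 genes, Atp5g1, Atp5g2 and Atp5g3, which differ in their mitochondrial import sequence and are known to give the same mature ring subunit. In rodent brown fat the low ATP synthase content has been tied to scarce Atp5g1 mRNA. The 3 coding sequences are shown because the counts of these genes can be told apart only where the sequences differ. Each line gives the last 225 coding bases before the stop codon (GENCODE M21, build GRCm38, 5′ to 3′), with capitals at positions that differ from Atp5g1.
Atp5g1: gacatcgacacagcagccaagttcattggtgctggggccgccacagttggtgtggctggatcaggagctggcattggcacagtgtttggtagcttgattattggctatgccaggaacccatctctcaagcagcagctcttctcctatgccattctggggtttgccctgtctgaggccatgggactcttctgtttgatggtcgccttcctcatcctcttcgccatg
Atp5g2: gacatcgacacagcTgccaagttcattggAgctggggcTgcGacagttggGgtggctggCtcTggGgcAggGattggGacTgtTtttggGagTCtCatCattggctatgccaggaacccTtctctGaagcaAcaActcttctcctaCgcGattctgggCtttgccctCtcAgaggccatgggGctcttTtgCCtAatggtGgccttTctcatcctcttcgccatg
Atp5g3: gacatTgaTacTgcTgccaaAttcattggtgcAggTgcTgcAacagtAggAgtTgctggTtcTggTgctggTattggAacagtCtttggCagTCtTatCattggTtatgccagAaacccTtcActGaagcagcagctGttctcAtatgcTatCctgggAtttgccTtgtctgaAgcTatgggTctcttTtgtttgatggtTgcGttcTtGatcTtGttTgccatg
Over this stretch Atp5g2 differed from Atp5g1 at 34 positions and Atp5g3 at 45, and Atp5g2 and Atp5g3 differed from each other at 48. The longest run shared with Atp5g1 was 20 bases in Atp5g2 and 11 in Atp5g3, so no 50-base word of this stretch is common to any of these with Atp5g1.

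Atp5g1, on chromosome 11 (96068852 to 96075670, minus strand, GRCm38), rose in AKO BAT. It had 22.0, 24.5 and 22.5 CPM in AKO libraries, against 9.95, 6.11 and 6.69 CPM in WT libraries, from 48 to 193 counts per library. Every AKO library was above every WT library by more than the range within either group, and the log2 fold change was 1.59 ± 0.20 (edgeR adjusted p = 6.9e-05), a 3.01-fold rise. Atp5g2, on chromosome 15, had 94.4, 90.5 and 78.2 CPM in AKO and 92.0, 123 and 97.2 CPM in WT (−0.24 ± 0.14, edgeR adjusted p = 0.19). Atp5g3, on chromosome 2, had 122, 109 and 103 CPM in AKO and 119.7, 118 and 106 CPM in WT (−0.04 ± 0.12). Both of these overlapped between the groups.

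The gene that rose had the fewest counts of the 3. Atp5g1 took 9.22%, 10.9% and 11.0% of the counts of the c-ring genes in AKO libraries, against 4.49%, 2.47% and 3.18% in WT libraries. Atp5g2 took 39.4% ± 0.99 in AKO and 45.8% ± 4.09 in WT, and Atp5g3 took 50.2% ± 1.25 in AKO and 50.8% ± 3.07 in WT (SD, n = 3 each). The log2 ratio of Atp5g1 to Atp5g3 was higher by 1.67 ± 0.22 in AKO and that of Atp5g1 to Atp5g2 by 1.86 ± 0.34, without overlap (exact permutation p = 0.1 and adjusted p = 0.15 for each). As levels per kilobase of transcript, the 3 genes summed to 393 CPM in AKO and 409 CPM in WT, while Atp5b alone stood at 3177 CPM per kilobase in AKO and 3799 CPM in WT. The lengths were those of the shortest principal transcript of each gene, which were 596, 441 and 714 bases for Atp5g1, Atp5g2 and Atp5g3. Their coding lengths without the stop codon were 408, 438 and 423 bases. The Atp5g2 length thus holds no untranslated sequence. If the Atp5g2 mRNA is longer, its level per kilobase and the sum are overstated. These levels are uncertain for Atp5g1 and Atp5g2 also through shared sequence. Of the 50-base words of these transcripts, 66.0% for Atp5g1 and 100% for Atp5g2 also occur in transcripts of processed pseudogenes, against 0% for Atp5g3. The figure for Atp5g2 covers its coding sequence alone, so it does not describe reads from any untranslated part. The treatment of shared reads by the counting is not given.

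**Figure D4:**
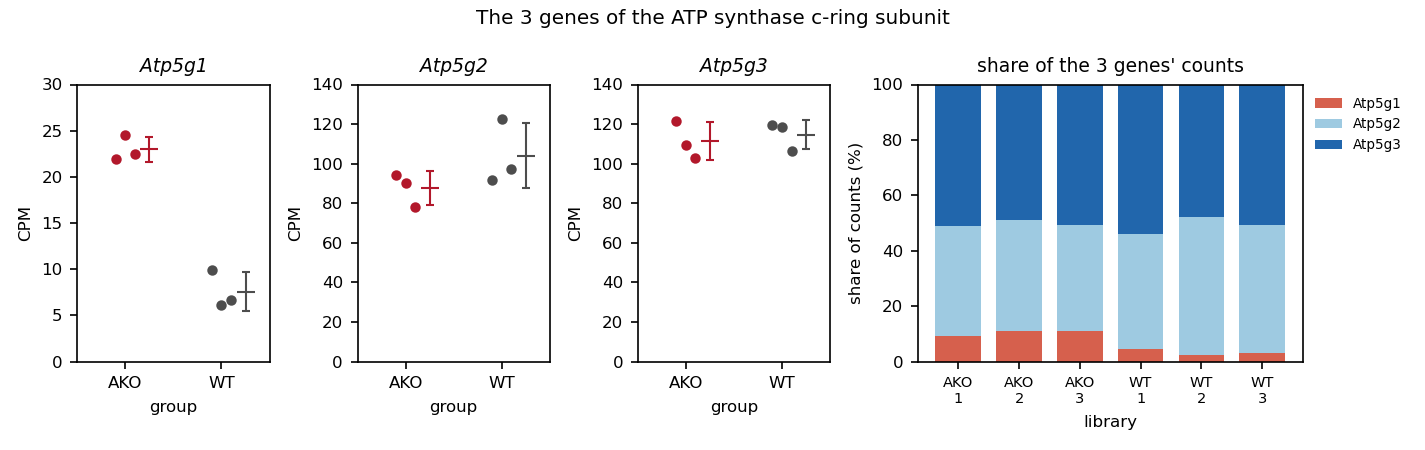
CPM of Atp5g1, Atp5g2 and Atp5g3 in AKO and WT libraries, with points for libraries and a bar for the mean and SD, and at right the share of the summed counts of the 3 genes in each library. Atp5g1 is at 22.0 to 24.5 CPM in AKO and 6.11 to 9.95 CPM in WT, and the other c-ring genes overlap between the groups.

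The third member that rose is not a subunit. Atp5s, also called factor B in the cow, had 9.00, 11.9 and 9.82 CPM in AKO and 4.92, 2.67 and 4.51 CPM in WT, from 21 to 94 counts per library. The groups did not overlap (log2 fold change 1.34 ± 0.25, edgeR adjusted p = 0.0012). Its counterpart by name, Atp5sl, a protein since linked to complex I assembly, was at 56.0 ± 2.54 CPM in AKO and 66.6 ± 4.34 CPM in WT and did not pass (−0.25, edgeR adjusted p = 0.11).

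Across libraries the members moved together. Each level was divided by the mean WT level of its gene, and the median over the 51 tested members was −0.32, −0.38 and −0.50 on the log2 scale in AKO 1 to 3, against −0.06, 0.13 and −0.09 in WT 1 to 3. AKO 3 was the lowest of all 6 libraries for 26 of the 29 members that fell, and WT 2 was the highest for 25 of them. The TMM factor was highest in AKO 3 (1.08) and lowest in WT 2 (0.930), which lowers the CPM of every gene in AKO 3 and raises it in WT 2. Without this scaling, the members took 2.72%, 2.53% and 2.44% of counts in AKO 1 to 3, against 3.09%, 3.37% and 3.06% in WT 1 to 3. The part of the scaling in the spread within a group was not tested. The count of falls depended on AKO 3 and WT 2. It was 18 without AKO 3 and 18 without WT 2, where 12.6% and 11.9% of all genes tested were called lower. AKO 3 was lowest in the summed brown adipocyte markers too, which stood at 9272, 7361 and 5672 CPM in AKO 1 to 3, against 20713, 20493 and 19356 CPM in WT 1 to 3. Most of each sum was Ucp1, at 6435, 4372 and 3154 CPM in AKO 1 to 3 and 15622, 15108 and 14006 CPM in WT 1 to 3. The part of these markers in the spread of the members was not tested. Over all counts of a library, the members took 2.56% ± 0.14 in AKO and 3.17% ± 0.17 in WT, and with mitochondrially encoded genes set aside 3.47% ± 0.12 in AKO and 3.99% ± 0.22 in WT.

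**Figure D5:**
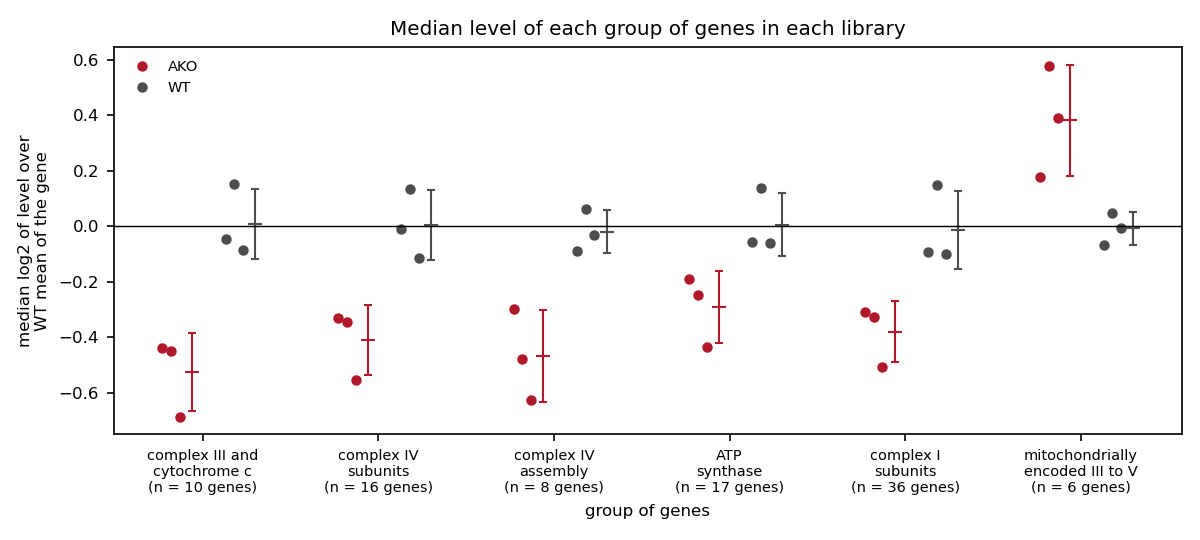
Median over the genes of a group of log2 of the level divided by the gene's mean WT level, by library, with the mean and SD over the 3 AKO (red) and 3 WT (grey) libraries. For every member class all 3 AKO libraries lie below all 3 WT libraries, as for complex I subunits, while the mitochondrially encoded mRNAs of complexes III to V lie higher in AKO.

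Sequence shared with other genes limits how surely a member can be counted. The cut used here was set after the values were seen. Of the 35 tested members with less than 10% of their 50-base words in another gene's transcript, 20 fell and 2 rose, with a median of −0.42. Of the other 16, 9 fell and 1 rose (median −0.43). With members whose exons overlap another gene also left out, 13 of 25 fell and 1 rose (−0.40). The highest sharing among tested members, after Atp5g2, was in Atp5l (68.5%), Atp5h (66.6%), Atp5g1 (66.0%), Cox7c (53.0%) and Cox17 (52.7%). The untested Cox16 shares 88.7% with Gm20498, a gene that overlaps it on the same strand, so its low counts are uncertain too. For Cox7c a pseudogene copy, Gm12338, has counts of its own and a log2 fold change of −0.42.

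Genes outside the naming rule that serve these complexes were taken from lists of assembly and regulatory factors. Of 6 complex III assembly factors 2 fell and 0 rose, with a median of −0.14. These were Ttc19, which clears fragments of the Rieske protein, at 29.7 ± 1.70 CPM in AKO and 52.0 ± 2.43 CPM in WT (−0.81 ± 0.12, edgeR adjusted p = 0.00030), and Uqcc3 (−0.70). Of 20 genes of complex IV assembly and expression 6 fell and 1 rose (median −0.34). Taco1, which activates translation of COX1, fell by 0.72, Pet100, an assembly factor, by 1.01, Sco1, a copper chaperone of COX2, by 0.74, and Ndufa4, a subunit of complex IV despite its name, by 0.68.

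Of 8 genes of ATP synthase assembly and regulation 3 fell and 1 rose (median −0.33). The 3 were 2010107E04Rik (−0.79), Tmem70 (−0.66), which helps assemble the c-ring, and Usmg5 (−0.61), a small membrane subunit. The 1 that rose was Atpif1, the inhibitor that stops the synthase from running backwards, at 18.5 ± 0.91 CPM in AKO and 10.1 ± 1.21 CPM in WT (log2 fold change 0.87, edgeR adjusted p = 0.0014).

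Many nuclear genes of complex I fell as well. Of 36 complex I subunits 19 fell and 0 rose, with a median of −0.37 and a range from −0.73 to 0.02, and of 4 complex II subunits 2 fell (−0.36). The mRNAs of complexes III to V that the mitochondrial genome encodes did not follow. Of 6 genes, CYTB, COX2 and COX3 rose, with log2 fold changes of 0.57, 0.87 and 0.78. COX1 (0.22) and ATP6 (−0.17), the latter at 3849 ± 591 CPM in AKO and 4338 ± 341 CPM in WT, did not pass. ATP8 had 50.03, 28.5 and 25.1 CPM in AKO and 109, 29.7 and 68.7 CPM in WT, and its fall of 1.00 was near the threshold (edgeR adjusted p = 0.046) with overlapping groups. COX1, the catalytic core of complex IV, was at 83609.9 ± 11979 CPM in AKO and 72028 ± 3646 CPM in WT. The counts of the mitochondrially encoded complex IV genes were 11.5, 15.9 and 15.6 times those of the nuclear ones in AKO libraries, against 8.29, 8.28 and 9.25 times in WT libraries. For the ATP synthase the same ratio was 0.32 ± 0.06 in AKO and 0.29 ± 0.04 in WT. Libraries were made from poly(A) RNA, and mitochondrial transcripts carry short tails or none, so these ratios describe the libraries and not the amounts of each RNA.

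Factors known to act on nuclear respiratory genes were mixed. Of 15, 4 fell and 2 rose, with a median of −0.18. Esrra, the orphan receptor ERRα that binds many respiratory promoters, had 108 ± 20.5 CPM in AKO and 219 ± 28.7 CPM in WT (log2 fold change −1.02, edgeR adjusted p = 0.00032), and its relative Esrrb fell by 1.95 at a low level. Pprc1, a coactivator of the PGC-1 family, and Pparg, the master regulator of adipocytes, rose by 0.66 and 0.48. Ppargc1a (−0.74, edgeR adjusted p = 0.023), whose groups overlapped, and Tfam (−0.39, edgeR adjusted p = 0.033) also fell. Nrf1 (0.42), Gabpa (−0.31) and Yy1 (0.16), added here because their products are known to bind promoters of respiratory genes, did not pass. Ebf2 (−0.04) did not pass either. Gabpa overlaps the member Atp5j by 397 exon bases on the opposite strand, and as strand use is not stated, its counts may include reads of Atp5j. 

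The promoters of the subunit 8 pair are shown because this restricted and general gene fell together, by 0.90 and 0.51 on the log2 scale. Each window runs from 250 bases before to 50 bases after the start of the gene (RefSeq, build GRCm38.p6), with motif matches in capitals, which are TATAAA in Cox8b and ACTTCCGG, the reverse complement of the ETS motif CCGGAAGT, in Cox8a.
Cox8b chr7:140900397-140900696, minus strand: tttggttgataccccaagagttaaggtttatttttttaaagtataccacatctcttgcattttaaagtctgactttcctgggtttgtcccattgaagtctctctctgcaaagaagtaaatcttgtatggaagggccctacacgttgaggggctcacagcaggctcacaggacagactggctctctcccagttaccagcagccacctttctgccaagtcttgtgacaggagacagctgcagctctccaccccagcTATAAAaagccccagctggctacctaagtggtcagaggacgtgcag
Cox8a chr19:7217567-7217866, minus strand: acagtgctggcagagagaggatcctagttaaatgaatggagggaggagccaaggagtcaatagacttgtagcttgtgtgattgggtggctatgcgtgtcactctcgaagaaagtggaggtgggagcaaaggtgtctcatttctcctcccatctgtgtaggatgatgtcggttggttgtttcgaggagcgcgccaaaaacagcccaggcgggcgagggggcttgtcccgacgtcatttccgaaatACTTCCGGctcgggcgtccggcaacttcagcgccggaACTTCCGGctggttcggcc
The Cox8b window held 2 CpG dinucleotides and the Cox8a window 19.

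RefSeq windows were at hand for 42 of the 54 members, 47 windows in all, and both strands were searched. The ETS motif CCGGAAGT, bound by GABP, was found in 17.0% of member windows, 7.62% of windows of all tested genes and 3.89% of all 32851 windows. The NRF1 motif was in 17.0%, 9.53% and 4.60%, and the YY1 motif in 8.51%, 1.96% and 0.852%. Windows of 1 gene can overlap and count a site more than once, and the 4 member windows with the YY1 motif belonged to 3 members. TATAAA was in 8.51%, 7.27% and 13.6%, the ERR motif TCAAGGTCA in 2.13%, 0.294% and 0.423%, and the EBF motif in 2.13%, 1.07% and 0.904%. Of all 42 members with windows, 23 fell and 15 were tested and did not pass, and whether calls differ by motif was not tested. The members with CCGGAAGT were Atp5h, Cox10, Cox14, Cox15, Cox16, Cox8a, Uqcr11 and Uqcrh, of which 5 fell and 2 did not pass. Those with the NRF1 motif were Atp5c1, Atp5g2, Atp5g3, Atp5h, Atp5k, Atp5o, Cox6a1 and Uqcrc1, of which 2 fell and 6 did not pass. TATAAA was in Atp5l, Cox10, Cox7b2 and Cox8b, of which 3 fell. The window of Atp5g1 held none of the 6 motifs, and neither did the windows of several members that fell, among them Cox7a1 and Uqcr10. A match of letters is a description of the window and does not show that a factor binds there.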

How the data were processed

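BAT mRNA, enriched on oligo(dT) beads, was sequenced in 3 AKO and 3 WT libraries, assigned by the labels. The authors deposited raw whole-number counts per gene, with no normalization. The study's methods name STAR and HTSeq, whereas the submitters' processing notes list DESeq2 1.4.5, RSEM 1.3.1, Bowtie2 and build mm10 with no role for any. Strand use, annotation release and the handling of multi-mapped reads are not stated in the sources at hand, so genes with near-identical copies or overlapping exons are uncertain.

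Of 22147 genes with a count above 0, filterByExpr left 13007, and those removed held 0.226% of counts. All 13007 were fitted with edgeR 4.0.16 in R 4.3.3 (TMM factors 0.930 to 1.08, genotype as the only term, glmQLFit and glmQLFTest). A gene was called at a Benjamini-Hochberg adjusted p under 0.05. SEs were obtained as the absolute log2 fold change over √F. DESeq2 1.42.0 and limma-voom 3.58.1 were alternatives, with other scalings, filters, a replicate block and each library left out in turn. Isoform ratios were taken within a library from counts plus 0.5 and tested by exact permutation over 20 arrangements.

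The members and lists were chosen with earlier results of these data known. Values in every library are given for the isoform genes, for members called higher, for the 4 called members of lowest p in each of 4 classes and for the 2 of smallest change there with a mean of at least 20 CPM. From the other lists, up to 4 genes of lowest p (assembly and regulatory factors) or up to 3 of highest level were named. Added after their values were seen were Nrf1, Gabpa, Yy1, Ppargc1a, Tfam, Ebf2 and all 6 mitochondrially encoded genes of complexes III to V. The muscle markers Ckm, Myl1 and Mb were also named outside this rule. Gene positions, transcript lengths (the shortest transcript of best APPRIS rank) and shared 50-base words came from GENCODE M21 (GRCm38) for all 54 members. The study gives 3 AKO and 3 control mice for these 6 libraries. Libraries within a group were not duplicates of each other (median chi-square per degree of freedom 8.60).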

Additional observations from a re-analysis of the deposited data

How the results depend on the processing

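The number of members that fell was 29 and stayed between 27 and 32 under other scalings (RLE, upper quartile, library totals, mitochondrial genes left out), DESeq2, limma-voom and other filters. The 3 that rose stayed 3 throughout. Leaving out each library in turn gave 18 to 32 falls, with 18 without AKO 3 and 18 without WT 2, where fewer libraries enter the fit and 12.6% and 11.9% of all genes were called lower, against 17.5% with all libraries. The median log2 fold change of the members lay between −0.45 and −0.32. With library totals the median over all genes moved to 0.10 and that of the members to −0.32, so the members stood 0.42 below all genes there and 0.43 below them with TMM. The replicate numbers were not treated as pairing the mice. Correlations of same-numbered libraries were −0.02, 0.01 and 0.18, and those of differently numbered libraries ran from −0.23 to 0.19. With 3 libraries per group these values cannot settle whether mice were paired. A fit with the replicate block gave 30 falls, 3 rises and a median of −0.43. The 6 ratios kept their direction with 0 or 5 counts added and without any 1 library. The direction of 4 members turned, none of them called under any alternative. Atp5c1 (−0.02) was at 0.038 with upper-quartile factors, 0.075 with library totals, 0.011 without mitochondrial genes, 0.038 with a minimum of 5 CPM, and −0.079 to 0.073 with a library left out. Atp5g3 (−0.04) was at 0.014, 0.052 and 0.014 with upper-quartile factors, library totals and the 5 CPM minimum, and −0.11 to 0.016 with a library left out. Cox4i2 (0.02) was at −0.014 with no filter and −0.18 to 0.29 with a library left out, and Cox6b2 (−0.11) at −0.32 to 0.088. The cause of these turns was not tested. Among single members that had fallen, Cox10 missed the threshold under 9 of 15 alternatives. Uqcrc1 and Uqcrq passed with DESeq2, without a filter and without AKO 1, Cox7a2 without a filter, with the replicate block and without AKO 1, and Atp5f1 with DESeq2. Depth limits the restricted forms: Cox6a2, Cox4i2 and Cox6b2 rest on 8 to 32 counts in WT libraries.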
